A study of Homo sapiens with 6 samples.

Results

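The S phase and mitosis genes described here are 50 genes that drive DNA replication and cell division, measured in MDA-MB-231 cells, a cell line derived from a human triple-negative breast cancer. They were chosen by name, as the rows of the deposited array table whose gene symbol is on the list, out of a table that names 20172 genes in all. Each of the 50 genes had a row. BIRC5 had 2, and the brighter was used, and the CENPA row is also annotated to SLC35F6, so the signals of those neighbouring genes cannot be separated. Of the cultures, 2 independent clones carried shRNA 162 against TIP-1, 2 carried shRNA 159 against TIP-1 and 2 carried a control shRNA, with 1 Affymetrix Human Gene 1.0 ST array for each clone (n = 2 per group). TIP-1, encoded by TAX1BP3, is a small PDZ-domain protein. The cells of all groups were kept in RPMI with serum at 10%, detached with trypsin, seeded afresh and cultured overnight, after which total RNA was taken. Each clone is a separate line, and the clones of a hairpin show how lines with that hairpin vary, not how hairpins vary.

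Cells copy their DNA in S phase and divide it in mitosis, and most of the proteins for each step are made shortly before they are needed. Cyclin E and the E2F transcription factors open S phase, licensing factors such as CDT1 and CDC6 load the replicative helicase, and GINS and CDC45 switch it on. Later, MYBL2 and FOXM1 act on promoters of G2 and M genes, cyclin B with CDK1 starts mitosis, and the anaphase-promoting complex ends it. The RNA of sets of genes such as these is used as a measure of proliferation in breast cancer.

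The labels were checked first on the targeted gene. TAX1BP3 had a log2 signal of 9.85 and 10.01 in the shRNA 162 clones and 10.40 and 10.40 in the shRNA 159 clones, against 11.65 and 11.56 in the control clones, so every TIP-1 shRNA clone lay below both control clones. The array medians of the tested rows ran from 7.86 to 7.91. All 7 mesenchymal breast cancer markers, VIM and CD44 among them, were in the upper quartile of rows on every array. Of the 11 luminal markers, 3 (ESR1, PGR and CDH1) were in the lower quartile and 2 (KRT8 and KRT18) in the upper quartile on every array. Of 8 leukocyte markers, 4 (PTPRC among them) were in the lower quartile and 1 (CD68) in the upper quartile on every array, and of 9 fibroblast and endothelial markers 5 were in the lower and 0 in the upper quartile. The mean log2 signal of the leukocyte list was 7.08 and 7.08 with shRNA 162, between 6.98 and 7.11 with shRNA 159 and between 7.04 and 7.08 in the controls. Among these markers, the log2 signals of FN1 (-0.71) and KRT8 (-0.44) fell in the shRNA 162 clones, and EPCAM rose by 0.94 with shRNA 159 and by 0.55 for TIP-1 shRNA minus control. For shRNA 159 minus shRNA 162, FN1 (0.92), EPCAM (0.79) and PDGFRB (0.41) were higher. The part of such differences in the changes of the 50 genes was not tested.

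The 50 genes were well measured. Of these, 41 lay in the upper quartile of rows on every array, 49 had a mean above the median row, and none lay in the lower quartile on every array. The dimmest was E2F2, at percentile 31.0 of the tested rows. Clones of the same group differed by a median of 0.061 (shRNA 162), 0.074 (shRNA 159) and 0.074 (control) on the log2 scale across the 50 genes. Their largest differences between clones of a group were 0.33 for GINS2 with shRNA 162, 0.22 for E2F3 with shRNA 159 and 0.27 for CENPE in the controls.

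The set as a whole stayed close to the control level with either hairpin. Averaged over the 50 genes, the clones stood 0.033 and 0.077 above the control mean with shRNA 162 and 0.049 above and 0.010 below it with shRNA 159 (log2 signal), while the control clones stood 0.015 above and below it. One shRNA 159 clone thus lay within the range of the controls. The median change of the 50 genes was 0.048 with shRNA 162, where the median over all 21214 tested rows was 0.021, and 0.0016 with shRNA 159, where that over all rows was -0.014. Over the alternatives the median of the 50 genes ran from 0.014 (after quantile normalization) to 0.081 (without control clone 1) with shRNA 162, and from -0.018 (after quantile normalization) to 0.039 (without control clone 1) with shRNA 159. It was 0.079 without shRNA 162 clone 1 and 0.026 without shRNA 162 clone 2 with shRNA 162, and -0.0058 without shRNA 159 clone 1 and 0.027 without shRNA 159 clone 2 with shRNA 159. In RNA from whole cultures, a change in the share of cells in a phase and a change in RNA per cell in that phase cannot be told apart.

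Passing means an adjusted p under 0.05 in limma's moderated test (Benjamini-Hochberg, over all tested rows). With shRNA 162, FOXM1, CDT1 and CDC25B rose and AURKA fell, 4 of 50 genes (8.0%), where 9.52% of all tested rows passed (5.88% higher and 3.64% lower). With shRNA 159, 0 of 50 genes passed, where 2.53% of all rows did (1.69% higher and 0.839% lower). Averaging the means of the hairpin groups gave the change for TIP-1 shRNA minus control, in which 0 of 50 passed, beside 4.62% of all rows (3.01% higher and 1.61% lower). At an unadjusted p under 0.05 in limma, 17 of the 50 differed with shRNA 162 (25.1% of all rows), 4 with shRNA 159 (14.1%) and 9 for TIP-1 shRNA minus control (19.8%). The comparisons with control share the same control clones. The arrays were precise enough to bound most changes. The 95% interval lay within 0.5 of no change on the log2 scale for 44 of 50 genes with shRNA 162 (83.3% of all rows) and for 49 of 50 with shRNA 159 (90.1% of all rows). It lay within 1, a 2-fold change, for all 50 genes with shRNA 162 (99% of all rows) and with shRNA 159 (99.4%).

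With shRNA 162, 33 of the 50 genes had a positive change (55.4% of all rows). Both shRNA 162 clones lay above both controls in 21 genes (33.3% of all rows) and below both in 11 (23.3%). With shRNA 159, 26 genes had a positive change (45.5% of all rows), and both clones lay above both controls in 11 genes (20.7%) and below both in 11 (21.7%). All 4 TIP-1 shRNA clones lay above both controls in 8 genes (13% of all rows) and below both in 5 (8.9%). No gene changed by 0.5 or more in size, as 3.69% of all rows did with shRNA 162, 1.85% with shRNA 159 and 1.56% for TIP-1 shRNA minus control. In TIP-1 shRNA minus control, 32 of the 50 had a positive change (50.2% of all rows), and the interval lay within 0.5 for 49 (93%) and within 1 for all 50 (99.7%).

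**Figure D1:**
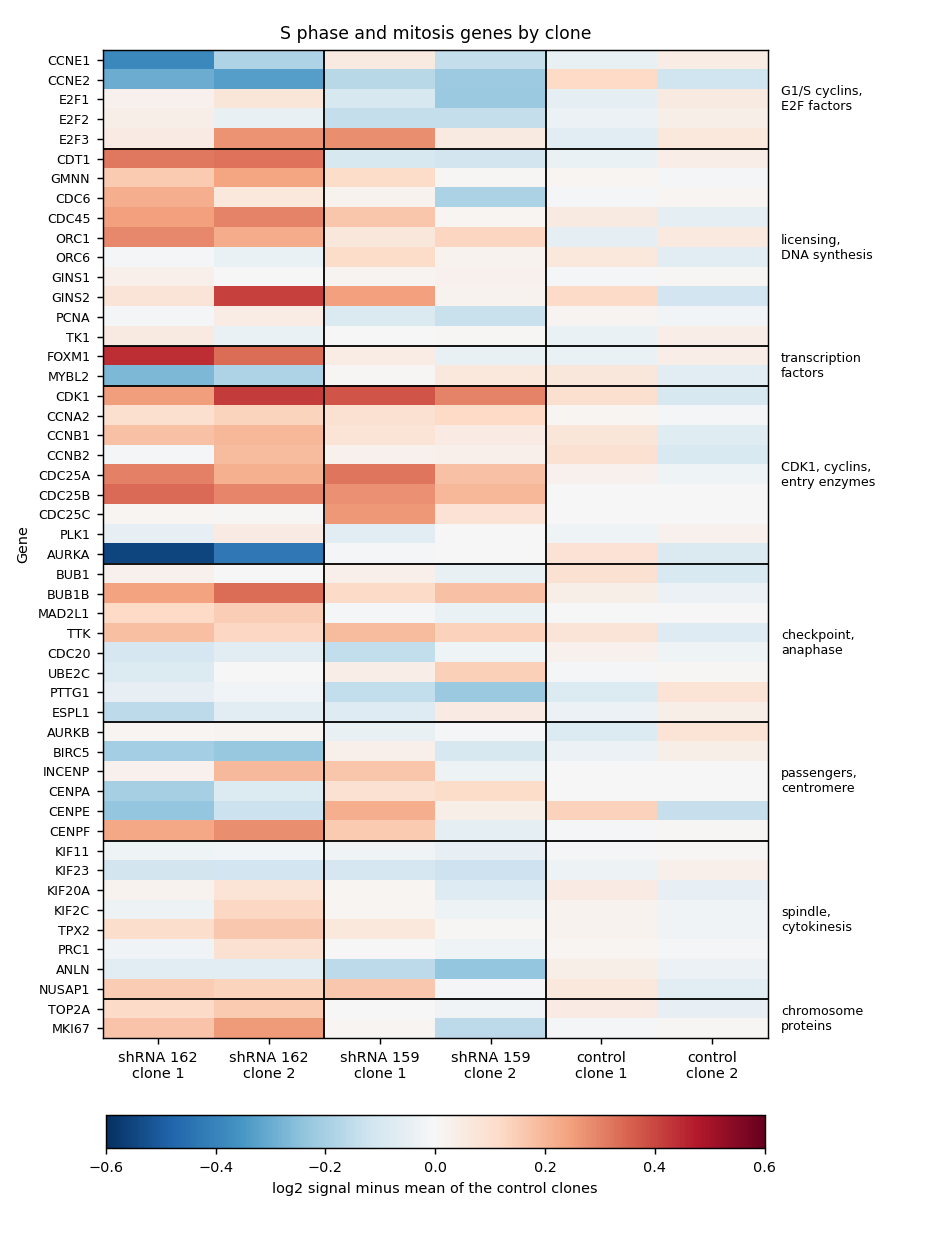
Log2 signal of each of the 50 genes (down the page, by role) in each of the 6 clones (across), as the difference from the mean of the control clones, from blue (lower) to red (higher). The red FOXM1 and CDT1 cells and the blue AURKA cells of the shRNA 162 clones stand out, and CDK1, CDC25A and CDC25B are red in all 4 TIP-1 shRNA clones.

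The calls with shRNA 162 depended on the clones of the compared groups, on the rows tested and on how the variance was modelled. With only the 4 arrays of the compared groups in the fit, the same 4 genes passed, where 11.4% of all rows did. Without 1 clone of a compared group, most or all of these calls were lost, as were most calls over all rows, with 1 clone left there. The changes then ran from 0.34 to 0.44 for FOXM1 and from 0.28 to 0.36 for CDT1. They ran from 0.30 to 0.34 for CDC25B and from -0.58 to -0.40 for AURKA. Among the rows above the median signal, or with a variance prior that follows the mean signal, 14 genes passed, the 4 named above among them, where 29.1% and 16.4% of all rows in those fits passed. With the unannotated rows added to the test 0 genes passed, and 2.08% of all rows did.

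**Figure D2:**
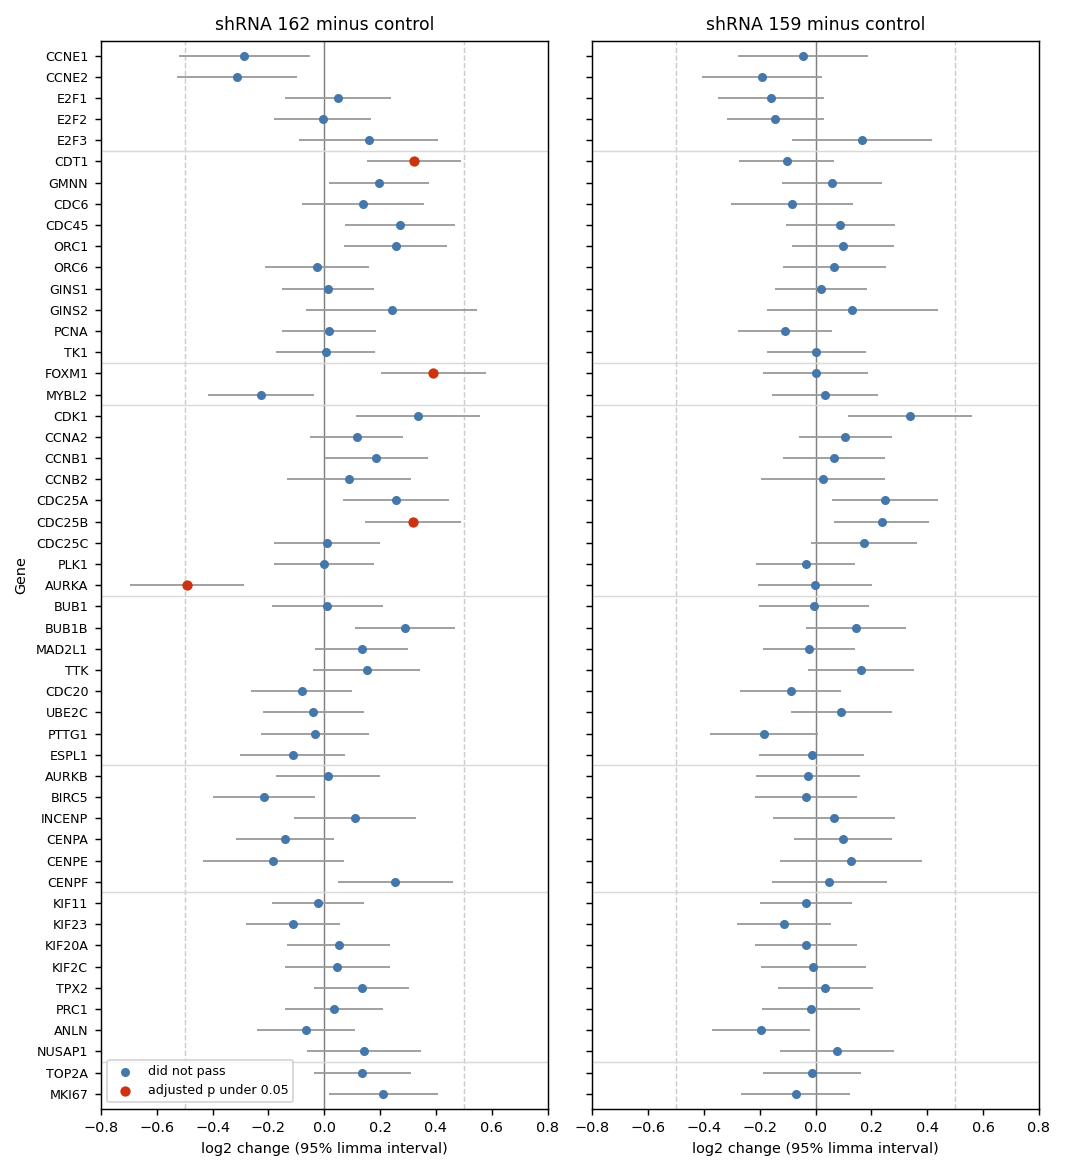
Log2 change of each of the 50 genes with shRNA 162 minus control (left) and shRNA 159 minus control (right), with its 95% limma interval as a bar, ordered by role, and dashed lines at 0.5 either side of no change. The 4 genes that passed with shRNA 162 are red, and no gene passed with shRNA 159.

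Among the G1/S regulators, 0 of 5 genes passed with either hairpin, where 9.52% (shRNA 162) and 2.53% (shRNA 159) of all tested rows did. CCNE2, a cyclin E that activates CDK2 at the start of S phase, had a log2 signal of 10.39 and 10.36 in the shRNA 162 clones and 10.52 and 10.47 in the shRNA 159 clones, against 10.80 and 10.56 in the controls. All 4 TIP-1 shRNA clones lay below both control clones. Its change was -0.31 with shRNA 162 (SE 0.09, 95% interval -0.53 to -0.099, limma adjusted p = 0.0753) and -0.19 with shRNA 159 (interval -0.41 to 0.022, limma adjusted p = 0.409). CCNE1, the other cyclin E, changed by -0.29 with shRNA 162 (limma adjusted p = 0.123) and by -0.044 with shRNA 159. The E2F factors, which switch on S phase genes, had changes from -0.0059 (E2F2) to 0.16 (E2F3) with shRNA 162 and from -0.16 (E2F1) to 0.17 (E2F3) with shRNA 159.

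Of 10 genes for licensing and DNA synthesis, 1 rose with shRNA 162, where 5.88% of all tested rows did. A positive change was seen in 9 (55.4% of all rows), and in 5 both shRNA 162 clones lay above both controls (33.3% of all rows). CDT1, which loads the MCM helicase at origins, had a log2 signal of 9.32 and 9.32 in the shRNA 162 clones and 8.90 and 8.89 in the shRNA 159 clones, against 8.96 and 9.04 in the controls. The shRNA 162 clones were the highest and the shRNA 159 clones the lowest of the 6, with no overlap between groups. CDT1 rose by 0.32 with shRNA 162 (SE 0.07, 1.25-fold, limma adjusted p = 0.0317) and changed by -0.10 with shRNA 159 (interval -0.27 to 0.065).

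The next largest changes of the replication genes with shRNA 162 did not pass. They were 0.27 for CDC45, a subunit of the active helicase (limma adjusted p = 0.0886), 0.26 for ORC1, of the origin recognition complex (limma adjusted p = 0.0862), 0.24 for the GINS subunit GINS2, whose shRNA 162 clones stood at 11.41 and 11.74, and 0.20 for GMNN, the protein geminin that restrains CDT1 (limma adjusted p = 0.164). CDC6, the loading partner of CDT1, changed by 0.14. The sliding clamp PCNA (0.017), the thymidine kinase TK1 (0.0058), GINS1 (0.014) and ORC6 (-0.027) lay within 0.03 of no change with shRNA 162. The median of the 10 genes was 0.17 with shRNA 162 and 0.040 with shRNA 159, beside 0.052 and 0.031 for all rows in the brightest quartile.

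FOXM1, a factor that activates genes of G2 and mitosis, had a log2 signal of 11.21 and 11.10 in the shRNA 162 clones and 10.81 and 10.72 in the shRNA 159 clones, against 10.72 and 10.81 in the controls. The shRNA 162 clones lay above all others, and the shRNA 159 and control clones covered the same range. FOXM1 rose by 0.39 with shRNA 162 (SE 0.08, 1.31-fold, limma adjusted p = 0.0234), and its change with shRNA 159 was 0.00037 (interval -0.19 to 0.19). MYBL2, or B-Myb, which binds the same class of promoters as part of the MuvB complex, changed by -0.23 with shRNA 162 (limma adjusted p = 0.132) and by 0.033 with shRNA 159. Both shRNA 162 clones of MYBL2, at 10.20 and 10.28, lay below both controls, at 10.53 and 10.40.

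**Figure D3:**
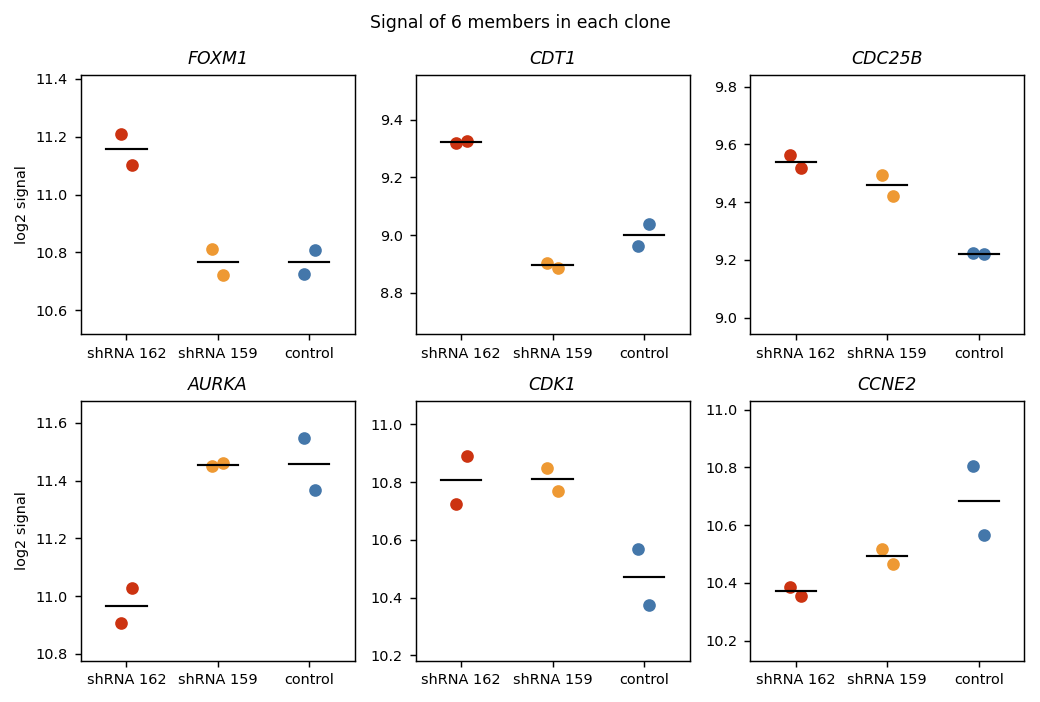
Log2 signal (vertical axes, each 0.9 units tall) of 6 genes in the shRNA 162, shRNA 159 and control clones, with a point for each clone and a line at the mean of each group of 2. FOXM1, CDT1 and AURKA set the shRNA 162 clones apart from the rest, whereas CDC25B and CDK1 are higher, and CCNE2 lower, in all 4 TIP-1 shRNA clones than in the control clones.

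Among CDK1, the cyclins A and B and the kinases and phosphatases of mitotic entry, CDC25B rose and AURKA fell with shRNA 162. They were 2 of 9 genes (22.2%), where 9.52% of all tested rows and 15.8% of the rows in the brightest quartile passed. AURKA, the kinase that matures centrosomes and builds the spindle, had a log2 signal of 10.91 and 11.03 in the shRNA 162 clones and 11.45 and 11.46 in the shRNA 159 clones, against 11.55 and 11.37 in the controls. The shRNA 162 clones were the lowest of the 6. AURKA fell by 0.49 with shRNA 162 (SE 0.09, 1.41-fold lower, limma adjusted p = 0.0132), the largest change of any of the 50 genes there, and its change with shRNA 159 was -0.0021 (interval -0.21 to 0.20). TPX2, the spindle protein that activates AURKA, changed by 0.13 with shRNA 162, and PLK1, another kinase of mitotic entry that AURKA activates, by -0.00039.

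CDC25B, a phosphatase that removes the inhibitory phosphates of CDK1, had a log2 signal of 9.56 and 9.52 with shRNA 162 and 9.49 and 9.42 with shRNA 159, against 9.22 and 9.22 in the controls. All TIP-1 shRNA clones lay above both controls. It rose by 0.32 with shRNA 162 (SE 0.07, 1.25-fold, limma adjusted p = 0.0341). With shRNA 159 its change was 0.24 (interval 0.066 to 0.41, limma adjusted p = 0.185), and for TIP-1 shRNA minus control it was 0.28 (SE 0.06, limma adjusted p = 0.0509), just short of the threshold. That value passed under 4 of 15 alternatives, over which the limma adjusted p ran from 0.00707 to 0.434.

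CDK1, the kinase that drives mitosis, had the largest change of the 50 genes with shRNA 159. Its log2 signal was 10.72 and 10.89 with shRNA 162 and 10.85 and 10.77 with shRNA 159, against 10.57 and 10.37 in the controls. Every TIP-1 shRNA clone lay above both controls, and the controls themselves differed by more than the clones of either hairpin. The change was 0.34 with shRNA 162 (SE 0.10, limma adjusted p = 0.0678) and 0.34 with shRNA 159 (SE 0.10, limma adjusted p = 0.14), and neither passed. CDC25A, a phosphatase active at S phase entry as well as mitosis, changed by 0.26 and 0.25 with the same hairpins, and neither value passed. CCNA2 (0.12 and 0.11), CCNB1 (0.19 and 0.067) and CCNB2 (0.089 and 0.026), the cyclin partners of CDK1, had smaller changes with shRNA 162 and shRNA 159, and CDC25C changed by 0.0094 and 0.17.

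None of the 8 spindle checkpoint and anaphase genes passed in any comparison, where 2.53% to 9.52% of all tested rows did. BUB1B, the checkpoint protein BubR1, had the largest change with shRNA 162. Its log2 signal was 10.17 and 10.27 with shRNA 162 and 10.05 and 10.10 with shRNA 159, against 9.96 and 9.90 in the controls, a change of 0.29 with shRNA 162 (limma adjusted p = 0.0545) and 0.14 with shRNA 159. The 4 TIP-1 shRNA clones lay above both controls. The other checkpoint genes changed by 0.011 (BUB1), 0.13 (MAD2L1) and 0.15 (TTK) with shRNA 162. CDC20 and UBE2C, which activate and serve the anaphase-promoting complex, changed by -0.081 and -0.040, and PTTG1 and ESPL1, the securin and separase that hold and release sister chromatids, by -0.033 and -0.11. With shRNA 159 the 8 genes ran from -0.18 (PTTG1) to 0.16 (TTK).

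None of the 6 chromosomal passenger and centromere genes passed in any comparison either, beside the same 2.53% to 9.52% of all tested rows. BIRC5, the passenger protein survivin, changed by -0.22 with shRNA 162 (limma adjusted p = 0.135), and its dimmer row changed by -0.016. CENPE, a kinetochore motor, had a log2 signal of 9.70 and 9.80 with shRNA 162 and 10.15 and 9.96 with shRNA 159, against 10.07 and 9.79 in the controls. Its control clones spanned most of that range. CENPF, a large kinetochore protein, changed by 0.26 with shRNA 162 (limma adjusted p = 0.119) and by 0.049 with shRNA 159. AURKB, the catalytic passenger kinase, changed by 0.014 with shRNA 162 and -0.027 with shRNA 159, INCENP, its scaffold, by 0.11 and 0.067, and CENPA, the centromeric histone, by -0.14 and 0.099.

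None of the 8 spindle and cytokinesis genes passed in any comparison, beside the same 2.53% to 9.52% of all tested rows. With shRNA 162 the 8 genes ran from -0.11 (KIF23, a cytokinesis motor) to 0.14 (NUSAP1, a microtubule-bundling protein). With shRNA 159 they ran from -0.20 (ANLN, the anillin of the cleavage furrow) to 0.075 (NUSAP1). ANLN stood at 11.90 and 11.82 with shRNA 159, against 12.09 and 12.02 in the controls (limma adjusted p = 0.292). KIF11, the motor that separates spindle poles, lay between 10.51 and 10.56 on all 6 arrays. The motors KIF20A (0.051) and KIF2C (0.046) and the spindle midzone protein PRC1 (0.034) also had small changes with shRNA 162. Of the chromosome proteins, MKI67, the Ki-67 antigen used to score proliferation, changed by 0.21 with shRNA 162 (limma adjusted p = 0.165) and -0.072 with shRNA 159, and TOP2A, the topoisomerase that untangles chromatids, by 0.14 and -0.013.

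Set directly against each other, the hairpins differed in 3 of 50 genes (6.0%), where 8.65% of all tested rows passed (4.02% higher and 4.64% lower). AURKA was higher with shRNA 159 than with shRNA 162 by 0.49 (SE 0.09, limma adjusted p = 0.014), CDT1 was lower by a change of -0.43 (SE 0.07, limma adjusted p = 0.0118) and FOXM1 by a change of -0.39 (SE 0.08, limma adjusted p = 0.0247). In each of these genes the 2 clones of a hairpin did not overlap those of the other, as in 19.3% (higher) and 32.6% (lower) of all rows. Since the genes were picked by this test, that order is no separate support. Some or all of the 3 calls were lost without either shRNA 162 clone or without shRNA 159 clone 2. Fewer of all rows passed in those fits too, with 1 clone left in that group. With a clone of either hairpin left out, the differences ran from 0.43 to 0.55 for AURKA. They ran from -0.43 to -0.42 for CDT1 and from -0.44 to -0.34 for FOXM1. CDC25B and CDK1 differed between hairpins by -0.082 (interval -0.25 to 0.089) and 0.0038 (interval -0.22 to 0.23). CENPE (0.31) and MKI67 (-0.28) had the next largest differences, and neither passed (limma adjusted p = 0.132 and 0.0797). Over the 50 genes the median was -0.046, beside -0.039 over all tested rows, and 15 genes had a positive difference (40.1% of all rows). Both shRNA 159 clones lay above both shRNA 162 clones in 10 genes (19.3% of all rows) and below both in 21 (32.6%). At an unadjusted p under 0.05 in limma, 12 of the 50 differed (24.2% of all rows), and the interval lay within 0.5 for 46 (84.1%) and within 1 for all 50 (99%). No gene differed by 0.5 or more, as 3.64% of all rows did.

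The other genes of the same processes were taken from lists that hold none of the 50. Of 57 other S phase genes, 13 rose and 2 fell with shRNA 162, 26.3% of the list, beside 15.8% of the rows in the brightest quartile, and 48 had a positive change. Their median change was 0.22, beside 0.021 for all tested rows and 0.052 for the brightest quartile, and 0.18 after quantile normalization. In 45 of the 57 both shRNA 162 clones lay above both controls, where 33.3% of all rows had that order. MCM2, a subunit of the helicase that CDT1 loads, rose by 0.51 and RAD51AP1, a partner of a recombinase, by 0.55, while RFC4, of the clamp loader of PCNA, fell by 0.62. DBF4, the activator of the CDC7 kinase, passed upward with both hairpins. Its log2 signal was 6.41 and 6.45 with shRNA 162 and 8.15 and 8.18 with shRNA 159, against 5.80 and 5.78 in the controls. The shRNA 162 and control values lie below the lower quartile of their arrays (6.74 to 6.81), where the files give no detection call, so no size is given for its change.

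Of those 57 genes, 9 lie on chromosomes 7 and 8, DBF4 among them. Without these the list held 48 genes, of which 8 rose and 2 fell with shRNA 162, with a median change of 0.17. The share that passed was 20.8%, beside 15.8% of the brightest quartile. Fewer of the 57 genes passed upward with shRNA 162 without 1 clone of a compared group, as fewer of all rows did, with 1 clone left there. The median change ran from 0.18 to 0.22 over all alternatives. With shRNA 159, 2 of the 57 rose (DBF4 and RFC2, another clamp loader subunit, by 0.61), 0 fell, and the median change was 0.039. The share that passed was 3.51%, beside 3.47% of the brightest quartile and 2.53% of all tested rows. Without chromosomes 7 and 8, 0 of the 48 rose or fell with shRNA 159, and the median was 0.040. For shRNA 159 minus shRNA 162 the median of the 57 was -0.15, with 4 genes higher and 8 lower (3 and 5 of the 48). Those shares were 21.1% and 16.7%, beside 12.9% of the brightest quartile and 8.65% of all tested rows. Both shRNA 159 clones lay below both shRNA 162 clones in 40 of 57 genes, where 32.6% of all rows had that order.

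**Figure D4:**
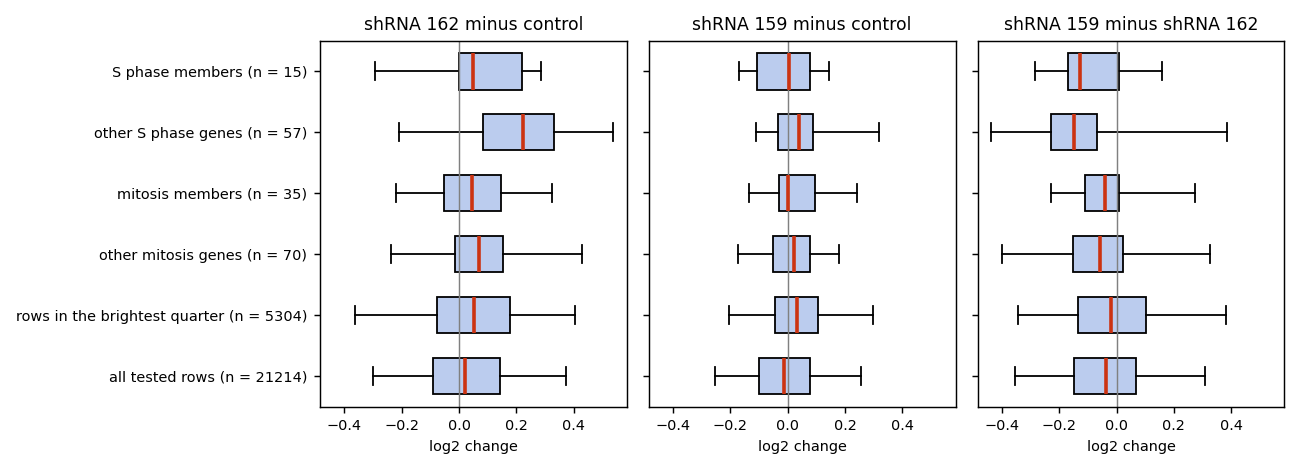
Log2 change (horizontal axes) in 3 comparisons for the S phase and mitosis genes among the 50, for the other S phase and mitosis genes, for the rows in the brightest quartile and for all tested rows. The red line is the median, the box the quartiles and the whiskers the 5th and 95th percentiles. The box of the other S phase genes lies above 0 with shRNA 162 (median 0.22) and below 0 for shRNA 159 minus shRNA 162 (median -0.15).

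Of 70 other mitosis genes, 4 rose and 3 fell with shRNA 162, 10% of the list, beside 9.52% of all tested rows and 15.8% of the brightest quartile. The median change was 0.068, beside 0.052 for the brightest quartile. CDCA2, a chromosome-bound phosphatase subunit, rose by 0.85, the kinase PBK by 0.80 and the condensin subunit NCAPD2 by 0.56, while ECT2, which opens the cleavage furrow through RhoA, fell by 0.67. CDCA2 and PBK are both on chromosome 8, and ECT2 and RFC4 are both on chromosome 3. With shRNA 159, 1 of the 70 rose (MELK, a kinase of dividing cells, by 0.36) and 0 fell. That was 1.43% of the list, beside 3.47% of the brightest quartile. The 35 mitosis genes among the 50 had a median change of 0.046 with shRNA 162 and 0.00037 with shRNA 159. The difference between the S phase and mitosis lists was not tested.

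Regulators upstream of these genes were examined in the same fit. Of 19 RB, E2F and DREAM genes, TFDP2 (0.37), the pocket protein genes RBL1 (0.33) and RBL2 (0.33) rose with shRNA 162, E2F6, a repressing E2F, rose by 0.54 with shRNA 159, and 0 fell with either. The share that passed was 15.8% with shRNA 162, as in the brightest quartile of rows, and 5.26% with shRNA 159, beside 3.47% there. Of 15 G1 cyclins, kinases and inhibitors, CDK6, a G1 kinase, rose with both hairpins (1.22 with shRNA 162 and 1.30 with shRNA 159), CDKN1B, the inhibitor p27, rose by 0.59 with shRNA 162, and cyclin CCND2 fell by 0.73 with shRNA 159. That was 13.3% of the list with each hairpin, beside 9.52% of all tested rows with shRNA 162 and 2.53% with shRNA 159. Of 18 p53 targets, 2 rose with shRNA 162 (the death receptor TNFRSF10B by 0.91 and TIGAR by 0.60), SESN1 fell, and 0 passed with shRNA 159. The share with shRNA 162 was 16.7% of the list, beside 9.52% of all tested rows and 15.8% of the brightest quartile. The p53 targets had a negative change in 12 of 18 with shRNA 162 and a positive one in 6, where 55.4% of all rows had a positive change. Both clones lay below both controls in 10 (23.3% of all rows) and above both in 5 (33.3%). The median was -0.13, beside 0.021 over all tested rows. SESN1 averaged 6.59 with shRNA 162, below the lower quartile of those arrays, so no size is given for its change.

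The genes that passed were then placed among their neighbours, with gene order from the RefSeq annotation of GRCh38.p14 and 10 measured protein-coding genes on each side. This was done after the values were seen. FOXM1 lies on chromosome 12, with RHNO1 and then TULP3 as its nearest measured genes on one side. Of its 20 neighbours, 7 rose and 0 fell with shRNA 162, TULP3 (2.00), TIGAR (0.60), FKBP4 (0.53) and ITFG2 (0.52) among them, where 5.88% of all rows rose, and the median neighbour changed by 0.13. With shRNA 159 the median neighbour changed by -0.0086, with 1 higher (TULP3, 1.65) and 1 lower (CCND2, -0.73). RHNO1 itself changed by 0.070 with shRNA 162, and TEX52, the nearest measured gene on the other side, by -0.48, and neither passed.

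AURKA lies on chromosome 20, as do 7 more of the 50 genes. Of its 20 neighbours, 3 fell and 0 rose with shRNA 162, CYP24A1 (-2.16), FAM210B (-0.50) and RTF2 (-0.32), where 3.64% of all rows fell. A negative change was seen in 16, where 55.4% of all rows had a positive one, and the median neighbour changed by -0.065. FAM210B is the nearest measured gene on one side of AURKA, and CSTF1, which changed by -0.033 and did not pass, is the nearest on the other. Around CDT1 on chromosome 16, 3 neighbours rose, APRT, CTU2 and ANKRD11, and 1 fell, CYBA, with a median of 0.016. Around CDC25B, also on chromosome 20, 0 rose and 2 fell, and the median was -0.084, on the other side of 0 from CDC25B itself. Whether the position of these genes has a part in their change was not tested.

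**Figure D5:**
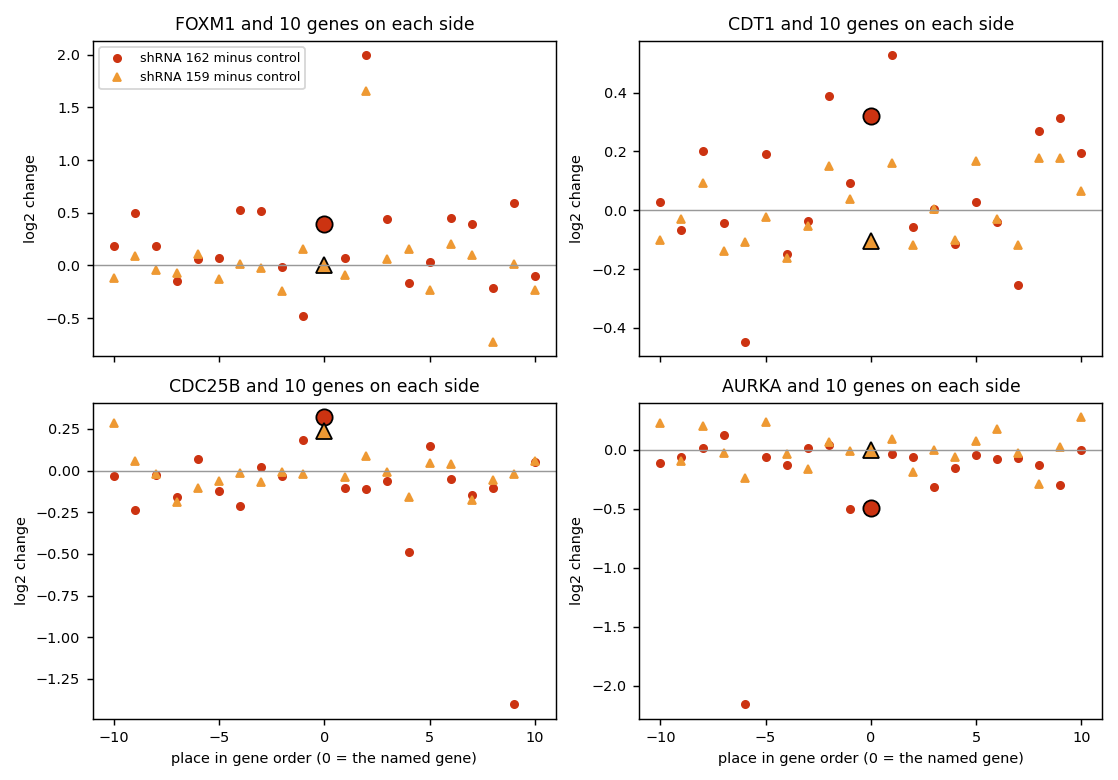
Log2 change with shRNA 162 minus control (circles) and shRNA 159 minus control (triangles) for FOXM1, CDT1, CDC25B and AURKA (large, at place 0) and the 10 measured protein-coding genes on each side, in gene order (horizontal axis). Near FOXM1, several genes lie at about 0.5 with shRNA 162, and TULP3 lies at 2.00 and 1.65. Near AURKA, most circles lie just below 0.

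The promoters of the 50 genes were examined for 3 motifs of cell cycle control, on both strands of the window from 250 bases before the start to 50 after it, with sequences from RefSeq (GRCh38.p14). A promoter held the E2F site where the letters TTTCGCG, or with the alternative middle letters the run TTTGGCG, were present. The cell cycle genes homology region, or CHR, was counted where the window held TTTGAA, which is the common form, or the rarer form written TTCGAA, a run that reads the same on both strands. The last motif was the box bound by NF-Y, whose letters are CCAAT. A window was given for 43 of the 50 genes, and a gene with several starts was counted where any of them held the motif. The E2F site was found for 8 of 14 S phase genes (57.1%) and 5 of 29 mitosis genes (17.2%), beside 5.14% of 15843 protein-coding genes. The CHR was found for 1 of 14 S phase genes (7.14%) and 20 of 29 mitosis genes (69.0%), beside 17.5% of all. The CCAAT box was found for 35 of 43 genes (81.4%), beside 42.1% of all. These matches describe the letters of the promoters and do not show that a factor was bound.

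The 150 bases before a start are printed for CDT1 and CDC25B, which passed with shRNA 162, and for CDK1, the gene with the largest change with shRNA 159. All 3 are on the plus strand and run 5′ to 3′, with the motif letters of either strand in capitals, and the printed matches do not overlap. CDT1 (chr16:88803639-88803788) has 1 E2F site and neither of the other motifs. CDC25B (chr20:3796160-3796309, 1 of 4 starts given) has 1 CCAAT box on the minus strand and 1 CHR. The E2F sites counted for CDC25B lie outside these printed bases. CDK1 (chr10:60778328-60778477, 1 of 2 starts given) has 1 E2F site, 2 CCAAT boxes on the minus strand and 2 CHR motifs.
CDT1: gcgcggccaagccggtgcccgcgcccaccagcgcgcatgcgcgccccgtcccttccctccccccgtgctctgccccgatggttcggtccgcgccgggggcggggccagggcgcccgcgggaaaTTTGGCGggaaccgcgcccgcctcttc
CDC25B: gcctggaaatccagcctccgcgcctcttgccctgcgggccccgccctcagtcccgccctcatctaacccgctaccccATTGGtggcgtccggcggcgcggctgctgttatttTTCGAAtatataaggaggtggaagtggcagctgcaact
CDK1: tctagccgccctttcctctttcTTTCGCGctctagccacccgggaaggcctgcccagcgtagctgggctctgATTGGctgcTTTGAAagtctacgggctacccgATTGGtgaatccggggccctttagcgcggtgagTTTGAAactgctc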

How the data were processed

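Total RNA of 6 clones was hybridised to 6 arrays. Per the series' design text, the authors used Affymetrix's Exon Array Computational Tool. They deposited 1 log2 signal for each probe set and array. How background and scale were set is not stated in the labels or headers, and base 2 was taken from their span, 2.29 to 14.65. Symbols came from the platform annotation. The 21214 of 33297 rows with at least 1 symbol were tested, without further scaling. A gene with several rows entered by the row with the highest mean.

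A linear model with 3 groups was fitted to all rows with lmFit and eBayes of limma 3.58.1, run in R 4.3.3 (3 residual and 5.31 prior degrees of freedom), two-sided, with Benjamini-Hochberg adjustment over all tested rows and a threshold of 0.05. The fit was tested on simulated data. Intervals are limma's 95% intervals. Arrays give no count depth, and their number limits the precision. The members and lists were chosen with earlier results of these data known, so lists are described by counts and medians. Named were TAX1BP3, every member that passed, the 5 largest changes in each comparison, the brightest and dimmest member of each role, and up to 4 passing genes of each list. Other genes, the neighbours among them, were named after their values were seen. Python 3.11.15 and matplotlib 3.10.9 made the plots. Alternatives changed the rows tested, the normalization, the variance prior, the replicate block, the row used per gene and the arrays included, and the repeats for the other lists, the neighbours and the motif search were added after the values were seen.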

Additional observations from a re-analysis of the deposited data

Results flagged for a closer look

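The change against control differed between the hairpins, by the direct test of shRNA 159 minus shRNA 162 in limma, for 3 of the 50 genes. That was 6.0% of the 50, where 8.65% of all tested rows passed. AURKA differed by 0.49 on the log2 scale, with a change of -0.49 with shRNA 162 and -0.0021 with shRNA 159. CDT1 differed by -0.43, with 0.32 with shRNA 162 and -0.10 with shRNA 159. FOXM1 differed by -0.39, with 0.39 with shRNA 162 and 0.00037 with shRNA 159. No group held enough clones for a test of single outlying arrays.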

How the results depend on the processing

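Each list had 57 repeats over the 4 comparisons. With shRNA 162 the median change ran from 0.014 to 0.081 for the 50 genes. It ran from 0.18 to 0.22 for the other S phase genes and from 0.041 to 0.084 for the other mitosis genes. With shRNA 159 the same medians ran from -0.018 to 0.039, from -0.0020 to 0.063 and from -0.024 to 0.066. These moves were not tested against the spread between clones. The counts of calls also moved, and so did the share of all rows called. For shRNA 162 minus control (3 higher, 1 lower) they were 0 and 0 with all rows of the value table, 9 and 5 among rows above the median signal, and 10 and 4 with a variance trend. After quantile normalization 4 genes passed, 2 of them lower, when CCNE2 passed and CDT1 did not. The rows passed in those fits were 2.08%, 29.1%, 16.4% and 10.1%, beside 9.52%. For shRNA 159 minus control (0 and 0) they were 2 and 0 among the brighter rows and 1 and 1 with the trend (8.92% and 5.36% of rows, beside 2.53%). For TIP-1 shRNA minus control (0 and 0) they were 4 and 2 among the brighter rows, 5 and 2 with the trend (18.8% and 10.7% of rows, beside 4.62%), and 1 higher with the rows of a gene averaged. With the 4 TIP-1 shRNA clones as 1 group, or with the hairpin as a random block, 0 genes passed. For shRNA 159 minus shRNA 162 (1 and 2) they were 0 and 0 with all rows (1.78% of rows, beside 8.65%), and 4 and 3 both among the brighter rows (23.3%) and with the trend (14.2%). Leaving out an array of a compared group lost calls in most fits with shRNA 162 and between hairpins. Fewer of all rows passed in those fits too, with 1 clone left in that group. The causes were not tested.

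Among the genes repeated under the alternatives, signs turned only for changes that did not pass. The largest of these was that of CENPE with shRNA 159 (0.13). With shRNA 159, FOXM1 was -0.024 after quantile normalization and -0.046 to 0.046 with an array left out. AURKA was 0.0061 with arrays centred on the median and -0.091 to 0.087 with an array left out, CENPE -0.011 to 0.26 and MKI67 -0.16 to 0.012. CENPE was -0.17 to 0.11 for TIP-1 shRNA minus control. Between hairpins, CDC25A was 0.013 after quantile normalization and -0.080 to 0.063 with an array left out, and CDK1 -0.079 to 0.087. With the replicate block, 4 genes passed with shRNA 162 and 3 between hairpins, the same genes as without it. The replicate numbers are not known to pair the clones, and deviations of same-numbered clones correlated across rows at -0.052 (shRNA 162 and control), 0.26 (shRNA 159 and control) and -0.028 (between hairpins).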
